A study of Mus musculus with 12 samples.

Results

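Treatment of Hras.Myc cells with TSA (trichostatin A), an inhibitor of histone deacetylases (HDACs), was examined by ATAC-seq, which marks open chromatin by where a transposase can cut the DNA. Hras.Myc cells are mouse embryonic fibroblasts (MEFs) transformed with oncogenic Ras and Myc, grown for at least a month so that the untransformed cells were lost. Both groups came from this same line. The labels give OG2 MEFs, which carry an Oct4-GFP reporter, as the cells, while the growth protocol names an ICR background and E13.5 embryos, and this was not resolved. Untreated Hras.Myc cells had 2 libraries, pooled by the authors in 1 peak list, and Hras.Myc+TSA cells had 1 library, treated for 2 days. Each library was made from about 50000 cells, and the sources used here do not state the dose of TSA for these libraries. Peaks of the 7 lists of the series were merged into 147985 loci, and a locus was called open where a list had a peak on it. The loci described here are the 81503 that were open in the untreated list, the TSA list or both. They were chosen by position alone: 11042 had a peak only in the untreated list (closed), 14325 only in the TSA list (opened), and 56136 in both (kept).

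HDACs remove acetyl groups from histone tails, and in doing so pack chromatin more tightly. Acetylation is laid down by acetyltransferases such as KAT2A and is read by bromodomain proteins such as BRD2 and BRD3. TSA blocks the zinc-dependent HDACs, so that acetylation builds up, and such inhibitors are known to change the activity of both silent and active genes. Promoters are marked by CpG-rich sequence and are open in most cell types, while distal enhancers are more specific to a cell type and in fibroblasts are often bound by AP-1, the dimers of FOS and JUN proteins. Each deposited peak also has a score of the authors on a scale that the sources do not explain. Scores were therefore turned into ranks within a list, from 0 for the weakest peak to 100 for the strongest.

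The fibroblast label was checked at promoters, taken as loci within 1000 bp of a coding transcription start site (TSS). Of 9 fibroblast markers, 7 had an open promoter in the untreated list and 6 in the TSA list. The promoter of Col3a1, a fibrillar collagen, scored 6.33 untreated and 5.42 with TSA, at ranks 52.5 and 56.6. That of Twist2, a mesenchymal transcription factor, scored 4.87 and 7.11, at ranks 34.8 and 69.9. Scores were lower overall in the TSA list (median 4.80 against 6.13), so a lower score can go with a higher rank. Thy1 had a weak promoter peak of 1.37 in the untreated list and none with TSA, and Col1a2 and Postn had no promoter peak in either list. Promoters of other cell types were also open: 3 of 5 neural, 2 of 4 endothelial, 1 of 4 blood, none of 4 muscle and 4 of 4 epithelial markers in the untreated list. The corresponding counts with TSA were 2, 1, 1, 1 and 3. Csf1r, the receptor of a macrophage growth factor, was among the strongest of these, with a promoter score of 16.9 untreated and 17.4 with TSA, at ranks 98.7 and 97.0. Its part in the results below was not tested.

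The loci below are extreme cases, stronger than most closed or opened loci, and are shown as examples of single sites. They are distal loci that overlap no annotated exon, with 1 chromosome left out: the 3 strongest closed, 2 of the 3 strongest opened, and the kept loci with the largest rise and the largest fall in rank. The central 200 bp of the forward strand are given (GRCm38/mm10), with matches to the 32 motifs searched in capitals. AP-1 (TGACTCA, or TGAGTCA read on the other strand) was matched in 5 of the 7, while over all loci of each kind it was matched in 22.6% of closed and 24.4% of opened loci.
Dach1 (closed, intron, chr14:97964708-97964907): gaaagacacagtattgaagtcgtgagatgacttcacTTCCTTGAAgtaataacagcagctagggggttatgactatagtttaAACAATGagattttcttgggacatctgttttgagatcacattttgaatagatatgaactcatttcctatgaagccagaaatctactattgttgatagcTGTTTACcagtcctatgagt
Col11a1 (closed, intergenic, chr3:114315216-114315415): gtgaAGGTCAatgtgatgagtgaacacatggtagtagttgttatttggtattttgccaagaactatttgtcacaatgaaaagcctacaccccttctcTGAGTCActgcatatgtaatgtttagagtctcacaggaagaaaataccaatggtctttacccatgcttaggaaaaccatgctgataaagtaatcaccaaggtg
Klhl13 (closed, intergenic, chrX:23507272-23507471): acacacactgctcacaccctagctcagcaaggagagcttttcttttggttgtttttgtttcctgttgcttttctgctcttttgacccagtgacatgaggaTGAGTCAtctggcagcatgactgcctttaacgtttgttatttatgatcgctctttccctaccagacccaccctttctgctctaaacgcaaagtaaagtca
Snx13 (opened, intergenic, chr12:35209534-35209733): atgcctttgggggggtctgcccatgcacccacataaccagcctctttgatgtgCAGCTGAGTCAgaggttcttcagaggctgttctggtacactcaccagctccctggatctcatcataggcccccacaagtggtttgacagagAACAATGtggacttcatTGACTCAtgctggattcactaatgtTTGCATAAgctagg
Cdh12 (opened, intron, chr15:21544899-21545098): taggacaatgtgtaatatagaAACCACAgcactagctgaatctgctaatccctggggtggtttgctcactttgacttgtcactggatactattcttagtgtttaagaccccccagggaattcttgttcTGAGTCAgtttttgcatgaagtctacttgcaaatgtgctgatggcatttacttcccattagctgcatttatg
Tpra1 (kept, rank rose, intron, chr6:88964098-88964297): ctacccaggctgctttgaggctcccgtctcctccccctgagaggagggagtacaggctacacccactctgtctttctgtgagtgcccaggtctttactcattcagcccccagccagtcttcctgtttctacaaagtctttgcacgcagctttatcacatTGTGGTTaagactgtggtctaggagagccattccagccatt
Rap1b (kept, rank fell, intron, chr10:117839012-117839211): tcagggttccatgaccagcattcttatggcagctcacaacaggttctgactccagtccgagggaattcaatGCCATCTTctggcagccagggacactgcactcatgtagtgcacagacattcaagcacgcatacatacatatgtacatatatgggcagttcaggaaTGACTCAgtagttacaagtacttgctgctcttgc

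The closed locus in an intron of Dach1, a transcriptional corepressor, scored 19.5 in untreated Hras.Myc and had no peak in the TSA list. It scored 17.7 in Hras.E1A, 20.1 in Hras.E1A+TSA and 10.3 in Hdac7SA.Mef2d, so it was open with TSA in the Hras.E1A line. The closed locus 284576 bp from Col11a1, a fibrillar collagen gene, scored 19.1 untreated, and that 142090 bp from Klhl13 scored 19.1. The opened locus 162248 bp from Snx13 scored 16.4 with TSA, and it held 2 AP-1 matches and 1 C/EBP match. The kept locus in an intron of Tpra1 had a score of 1.81 untreated and 13.8 with TSA, a change in rank from 5.50 to 92.8. The kept locus in an intron of Rap1b, a small GTPase, went the other way, from a score of 14.0 to 1.78 and from rank 96.4 to 5.95.

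To learn where the genome responded, loci were compared by their distance from a TSS. TSA closed 16.4% of the loci that were open in untreated cells (95% exact binomial interval 16.2 to 16.7), and 20.3% of the loci open with TSA (20.03 to 20.6) were newly opened. Promoters changed the least. Of 14446 untreated promoter loci, 1022 closed (7.07%, 6.66 to 7.50), against 10020 of 52732 distal loci (19%, 18.7 to 19.3), a ratio of 2.69. Of 14116 promoter loci with TSA, 692 were opened (4.90%, 4.55 to 5.27), against 13633 of 56345 distal loci (24.2%, 23.8 to 24.6), a ratio of 4.94. The ratio for opened loci was 2.43 with the weakest 25% of each list removed and 3.39 weighted to the same score ranks. These intervals cover counting error only, and with 1 list for each group no test across replicates was possible. With lists cut to equal length the shares were 18.98% closed and 19.2% opened. The treatment cannot be told apart from the use of 1 library in place of 2, since the read depth of the lists is unknown. Nor can fewer cells with an open locus be told apart from a lower accessibility in each cell.

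**Figure D1:**
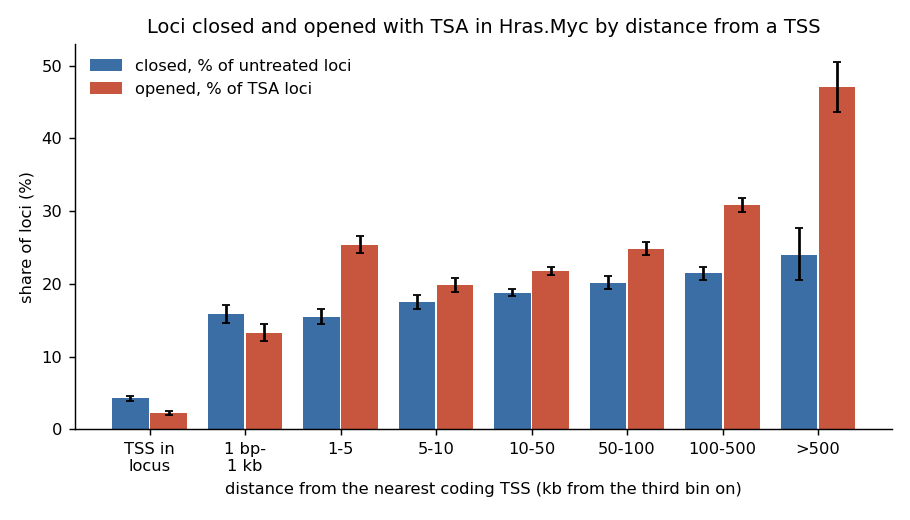
Share of untreated loci that closed and of TSA loci that opened (%), by distance from the nearest coding TSS. Bars are shares with exact binomial 95% intervals; loci that hold a TSS changed least (4.25% closed, 2.201% opened) and those over 500 kb away most (24.0% and 47.0%).

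Closed loci were more frequent far from a TSS. They were 4.25% of the loci that hold a TSS, 15.8% of others within 1 kb, 15.5% at 1 to 5 kb, 18.8% at 10 to 50 kb and 24.0% beyond 500 kb. Opened loci were spread more widely. They made up 2.201% of TSA loci at a TSS, 21.7% at 10 to 50 kb, 30.8% at 100 to 500 kb and 47.0% of the 832 loci beyond 500 kb. The zone from 1 to 5 kb stood above this trend, with 25.4% of its loci opened (24.2 to 26.6) against 19.8% at 5 to 10 kb (18.9 to 20.7). The size of this difference depended on how peak strength was handled, and its cause was not tested. Weighted to the same ranks, the shares at 1 to 5 kb and at 5 to 10 kb were 17.3% and 17.0%, while with the weakest 25% of every list removed they were 41.4% and 25.2%. In the Hras.E1A line, the shares opened with TSA in these zones were 17.4% and 13.7%.

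Closed and opened loci were weaker than kept loci. The definition favours this order, since a weak peak lies closest to the lowest score that a list holds. Closed loci had a median score of 4.64 in the untreated list, against 6.49 for kept loci. Opened loci had a median score of 3.20 in the TSA list, against 5.60 for kept loci. At ranks 0 to 10 of the untreated list 32.6% closed, and at ranks 90 to 100 3.21% did. At ranks 0 to 10 of the TSA list 41.5% were opened, and at ranks 90 to 100 0.282% (20 of 7087). Distal loci closed and opened more often than promoter loci at every one of the 10 rank levels. For closed loci at ranks 0 to 10 the intervals overlapped, with 32.9% distal (31.7 to 34.2) and 31.2% promoter (28.7 to 33.8). Promoters of middling strength were hardly lost: at ranks 50 to 60, 2.59% of promoter loci closed against 19.8% of distal loci.

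The changed loci differed in sequence from those kept. Opened distal loci had a median GC content of 46.0%, closed distal loci 47.9% and kept distal loci 48.5%. CpG-rich sequence, with an observed-to-expected CpG ratio of 0.6 or more, was found in 78.8% of kept promoters, 47.5% of closed promoters and 28.8% of opened promoters. This ratio is that of the locus and not of the whole promoter. A TSS lay in 463 of the 1022 closed, 235 of the 692 opened and 10442 of the 13424 kept promoter loci. The shares therefore do not tell whether the promoters themselves were CpG-poor. Loci with more than 50% of their bases in repeats were 4.41% of the closed, 4.57% of the opened and 2.63% of the kept loci. Gene bodies were overlapped by 64.6% of closed, 59.9% of opened and 69.0% of kept loci. The share of closed loci lay between 14.1% on chromosome 11 and 18.6% on chromosome 14, leaving out Y, which had 6 loci, all kept.

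At kept loci the question was whether TSA changed their strength. Ranks were higher with TSA at promoters and not at distal loci. The 13424 kept promoter loci had a median rank of 52.5 untreated and 70.8 with TSA, and the median of their shifts was 11.4 points (11.1 to 11.8). The 42712 kept distal loci had a median shift of -0.15 points (-0.32 to 0.04). A change of 20 points or more was used as the call. Over all kept loci 21.7% rose and 15.7% fell by this rule. Among promoters 4374 rose (32.6%) and 596 fell (4.44%), while among distal loci 7809 rose (18.3%) and 8221 fell (19.2%). The authors' scores showed the same order, with a median at kept promoters of 6.33 untreated and 7.25 with TSA, and at kept distal loci of 6.55 and 5.21.

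**Figure D2:**
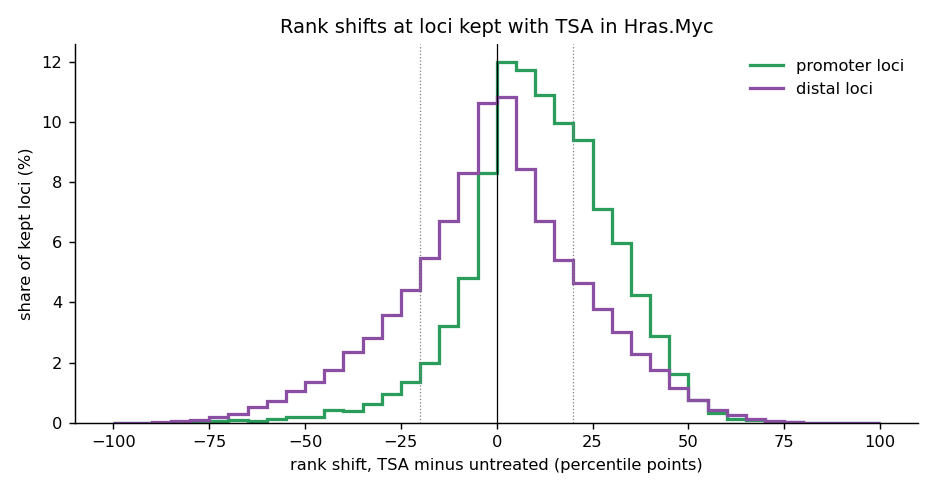
Distribution of rank shifts (TSA minus untreated, percentile points, in steps of 5) at kept promoter and kept distal loci, as a share of each (%). Dotted lines mark the call at 20 points; the promoter curve lies to the right of 0 (median 11.4) and the distal curve is centred near 0 (median -0.15).

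Shifts were then compared at the same mean of the untreated and TSA ranks. The shift and this mean come from the same ranks, which limits how large a shift can be at both ends of the scale, so promoter and distal loci are compared only within a bin. At a mean rank of 40 to 60 the median promoter shift was 20.6 points, and 51.3% of these promoters rose. Distal loci of that mean rank had a median shift of 0.77, with 28.0% rising and 29.4% falling. At a mean rank of 0 to 20 the medians were 0.27 for promoters and 0.30 for distal loci. CpG-rich promoters had a median shift of 12.3 points (11.9 to 12.7) and CpG-poor promoters 7.42 (6.33 to 8.32). Distal loci showed the same order, with 5.39 points where CpG-rich and -0.39 elsewhere. Shifts also declined away from the TSS, with medians of 11.96 points at it, 9.29 within 1 kb, 6.71 at 1 to 5 kb and 0.02 at 5 to 10 kb. A median promoter shift above 0 was present in other pairs of lists too: 4.60 for TSA in Hras.E1A and 2.67 for PD, a MEK inhibitor, in Hras.E1A. PD in Hras.Myc gave 2.06, a comparison that shares the untreated list with TSA.

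Genes were next ranked by the net number of loci lost or gained within 10000 bp of a TSS. In this zone 11.3% of untreated loci closed and 13.0% of TSA loci were opened. Of 18048 coding genes with a locus there, 3095 had 1 or more closed loci, 3595 had 1 or more opened loci and 680 had both. The genes named below were chosen by these counts, so the counts are a description, and most of the peaks were weak. Net losses of 4 loci were reached by Nlrc5, Mrvi1, Hspb9, Kat2a and Nme9. Nlrc5, which switches on MHC class I genes, had 8 loci in the untreated list and 4 with TSA. Its promoter (chr8:94434118-94434517, exonic, overlapping a UTR) scored 6.59 untreated and 10.8 with TSA, a rise from rank 55.7 to 86.2. The 4 lost loci, in or beside the gene, had scores of 1.69 to 3.77.

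Kat2a, which encodes an acetyltransferase, and its neighbour Hspb9, a small heat shock protein gene, share the same 4 closed loci, of scores 1.37, 2.74, 3.60 and 1.58. The locus at the Kat2a TSS was kept, with a score of 5.98 untreated and 10.0 with TSA. Nme9, a member of the nucleoside diphosphate kinase family, lost all 4 of its loci, including its promoter (chr9:99451224-99451623, score 4.39). This promoter was open in Hras.E1A (4.47) and Hras.E1A+TSA (1.79) and had no peak in Hdac7SA.Mef2d. Mrvi1, a substrate of the cGMP-dependent kinase in smooth muscle, lost 4 of 6, among them the locus at its TSS with a score of 3.29. Net losses of 3 loci were found at Nr2e1, a nuclear receptor of neural stem cells, Pitpnm2, Sulf2, Pygm and Slfnl1. Pygm, the muscle glycogen phosphorylase, had scores of 2.06 to 2.54 at its 3 loci and no peak with TSA.

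Net gains of 4 loci were reached by C1qtnf1, Hspb8 and Lin28a. With lists of equal length the net gain of C1qtnf1 was 1, while those of the other two stayed at 4. Lin28a encodes an RNA-binding protein of pluripotent and embryonic cells that blocks let-7 maturation (chr4:134003330-134018841). It had 1 locus untreated and 5 with TSA. The opened loci lay at the TSS (score 2.11), in introns (2.85 and 4.197) and upstream of the gene (2.96). The TSS locus had a peak in 1 other list, Hras.E1A+TSA, with a score of 3.25. Hspb8, a small heat shock protein gene (chr5:116408491-116422864), gained 4 loci with scores of 1.70 to 2.71, while its promoter scored 6.30 untreated and 6.06 with TSA, at ranks 52.1 and 62.3. C1qtnf1, which encodes a secreted protein of the C1q/TNF family, gained 5 loci with scores of 1.503 to 3.35 and lost 1 of 1.71.

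A net gain of 3 loci was shared by 32 genes and a net loss of 3 by 17, and those named were taken from these ties by their counts within 50000 bp. Net gains of 3 loci were found at Mecom, Dap, Akt2, Pde4dip, Prkar1b, Ubxn10 and Anln. Mecom is a transcription factor of blood stem cells, Akt2 a kinase of insulin signalling and Anln a scaffold of the cytokinetic ring. The promoter of Akt2 scored 3.75 untreated and 6.83 with TSA, a rise from rank 23.0 to 68.1. The promoter of Anln scored 5.43 untreated and 7.06 with TSA. An opened locus downstream of Dap scored 6.97 with TSA (chr15:31275630-31276029, 7294 bp from the nearest Dap TSS) and had a peak in no other list. Within 1000 bp of a start site, loci were gained at Akt2 (scores 2.25 and 2.60), Mecom (1.82), Prkar1b (6.04) and Ubxn10 (2.92). Counted within 5000 bp, the net changes at Pde4dip and Pitpnm2 were 0.

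Among 1031 genes with 4 or more kept loci, Pcdh1, Nudt14, Cavin3, Cd82 and Rhoc had the highest median shifts, from 38.7 points down to 33.6. Cd82 encodes a tetraspanin that restrains cell movement. Its promoter (chr2:93462402-93462801) scored 6.96 untreated and 18.4 with TSA, and 4 of its 5 kept loci had a higher rank with TSA. Cavin3, a coat protein of caveolae, had a promoter score of 4.81 untreated and 8.52 with TSA. Rhoc is a small GTPase of the cytoskeleton, and its promoter scored 3.85 untreated and 5.52 with TSA. Nudt14 was mixed, since the rank of its promoter fell from 53.8 to 10.9 while 3 other loci rose by 35.5 to 52.9 points.

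Low median shifts, from -39.2 to -22.1 points, were found at Arap1, Pacsin1, Plac1 and Epb41l2. Pacsin1, a membrane-shaping protein of nerve cells, had 4 kept loci, all of lower rank with TSA, and the locus at its first TSS scored 7.396 untreated and 2.93 with TSA. Arap1, a regulator of small GTPases, lost 4 loci, gained 1 and had 3 kept loci that fell by 39.2 to 57.6 points, while the locus at its first TSS had a shift of 7.18 points. At Epb41l2, a membrane skeleton protein, the promoter rose by 31.8 points, 1 intronic locus rose by 54.9 points and 3 intronic loci fell by 22.1 to 42.9 points.

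Promoters that were lost were strongest at Zfp458, Milr1, Lmod1, Ibsp and Fer, with untreated scores from 15.2 to 11.8. The Zfp458 promoter (chr13:67278342-67278741), of a zinc finger gene, had peaks in all of the other 5 lists. The Milr1 promoter (chr11:106751024-106751423), of an immune receptor gene, scored 14.3 untreated and also lies within 1000 bp of a Pecam1 TSS. Lmod1, a muscle actin regulator, had a promoter score of 12.5 untreated, 6.87 in Hras.E1A+TSA and 12.8 in Hdac7SA.Mef2d. Ibsp, the bone sialoprotein gene, scored 12.2 and Fer, a tyrosine kinase gene, 11.8, both in introns near the TSS. Opened promoters were weaker, and the strongest were at Ccl27a (9.08), Dapl1 (8.93), Prr23a3 (8.89), Mbnl3 (8.62) and Psd3 (8.53). Ccl27a encodes a chemokine and its locus also had peaks in Hras.E1A+TSA (5.96) and Hras.E1A (3.59).

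The genes of the transgenes and those the study names were mostly kept. The Hras promoter scored 8.06 untreated and 11.7 with TSA. At Myc, whose product drives growth, the promoter scored 3.92 untreated and 3.24 with TSA, at ranks 24.7 and 28.0. An intronic Myc locus rose by 29.1 points, and an exonic locus of score 1.697 was lost. These loci are those of the endogenous genes, although reads of a transgene that shares exons could also map there. Isl1, a homeodomain factor, had a promoter score of 10.5 and 17.1. At Tcf7l2, a WNT effector, the locus at an inner start site fell by 54.1 points (score 16.1 untreated and 4.32 with TSA), 2 other loci rose, and no locus was closed or opened. Cdh1, the epithelial cadherin, lost its promoter peak of 2.25, and an intronic locus 4912 bp from the TSS scored 8.204 untreated and 13.9 with TSA, a shift of 19.7 points. The Epcam promoter scored 7.57 and 7.07, at ranks 66.8 and 69.6.

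Gene lists were then set beside all coding genes, with loci within 10000 bp of a TSS. TSA blocks zinc-dependent HDACs, and a list was made of HDACs and their corepressors. At the 25 genes of this list, 7 of 60 untreated loci closed (11.7%) and 8 of 61 TSA loci were opened (13.1%), against 11.3% and 13.0% over all coding genes. Of their 30 kept promoter loci, 13 rose and none fell, with a median shift of 17.8 points. Over all kept promoters 32.6% rose and 4.44% fell, with a median of 11.4 points. Hdac1, a class I enzyme, had promoter scores of 11.8 untreated and 13.4 with TSA, at ranks 92.5 and 92.1. Hdac11, the class IV enzyme, had 10.4 and 19.8. At Hdac7, a class IIa enzyme, 2 of 9 loci closed, both at or next to a TSS, and 2 of the 7 kept loci rose.

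Acetyltransferases and acetyl readers had 8 of 43 loci closed (18.6%, 8.39 to 33.4) and 1 of 36 opened (2.78%, 0.07 to 14.5). Of the 8 closed loci, 4 were those near Kat2a. The shares of all coding genes, 11.3% and 13.0%, lay within these intervals. For this list 11.5% closed and 4.17% opened within 5000 bp, and 15% and 12.8% within 50000 bp. The matching shares of all coding genes for those windows are not given here. The 23 kept promoters of this list had a median shift of 20.5 points. Genes known to be induced by HDAC inhibitors had 4 of 55 loci closed (7.27%) and 7 of 58 opened (12.1%). Of their 24 kept promoter loci, 3 rose and 1 fell, with a median shift of 7.22 points. Over all kept promoters 32.6% rose and 4.44% fell, with a median of 11.4 points. In this list Cdkn1a encodes the cell cycle inhibitor p21. A locus at 1 of its start sites scored 5.06 untreated and 6.81 with TSA, at ranks 37.0 and 68.0. Cdkn1a gained a weak peak at another start site (1.62) and lost an exonic one 597 bp from a start site (1.43). Gsn, the actin-severing gelsolin, gained 2 intronic loci of scores 4.25 and 2.06 and lost 1 of 1.59.

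**Figure D3:**
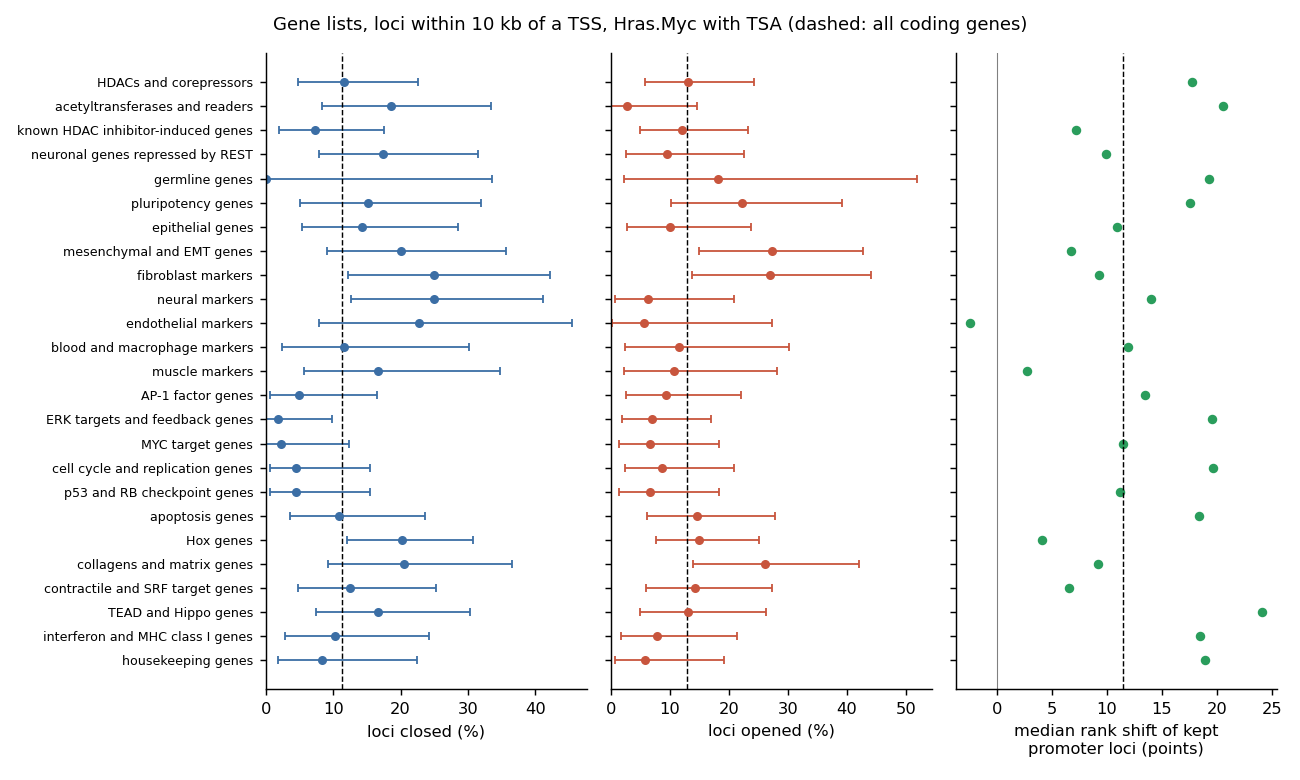
Share of loci closed and opened (%, exact binomial 95% intervals) and the median rank shift of kept promoter loci (points) for 25 gene lists, with loci within 10 kb of a TSS. The dashed line is the value over all coding genes; 24 of 25 promoter medians lie above 0, and endothelial markers are the exception at -2.40.

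Fibroblast and matrix genes gained and lost loci side by side. Fibroblast markers had 9 of 36 loci closed (25.0%, 12.1 to 42.2) and 10 of 37 opened (27.0%, 13.8 to 44.1). Collagens and matrix genes had 8 of 39 closed (20.5%, 9.30 to 36.5) and 11 of 42 opened (26.2%, 13.9 to 42.04). These lists share genes such as Col1a1, Col3a1 and Col6a1. Col3a1 gained loci of scores 2.26 and 3.56 upstream of its TSS. Dcn, the small proteoglycan decorin, lost both of its loci, of scores 4.81 and 5.27. Mesenchymal and EMT genes had 8 of 40 loci closed (9.05 to 35.6%) and 12 of 44 opened (27.3%, 14.96 to 42.8). Over all coding genes the shares were 11.3% closed and 13.0% opened. That closed share lay within the intervals of the collagen and mesenchymal lists and below that of fibroblast markers. That opened share lay below the intervals of all these lists. The intervals were not adjusted for the 25 lists compared, and the counts are small. Zeb2, a repressor that drives the mesenchymal state, gained 3 weak loci and lost 1 of score 6.71 next to a start site. Tgfbi, a matrix protein induced by TGF-beta, gained a locus 1990 bp from its TSS with a score of 8.08 (chr13:56607197-56607596), which scored 8.96 in Hdac7SA.Mef2d, while its promoter scored 6.72 untreated and 2.77 with TSA. Acta2, the smooth muscle actin, lost both of its loci, of scores 3.12 and 3.48.

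Near genes of growth, few loci closed within 10000 bp. Of 54 loci near ERK targets and feedback genes 1 closed (1.85%), as did 1 of 43 near MYC targets (2.33%), 2 of 44 near cell cycle genes (4.55%) and 2 of 41 near AP-1 factor genes (4.88%). Housekeeping genes had 3 of 36 closed (8.33%, 1.75 to 22.5). Over all coding genes the share was 11.3%, which lay within the intervals of these lists except that of ERK targets (0.047 to 9.89). Within 50000 bp the shares were 8.82% for ERK targets, 11.98% for MYC targets, 12.7% for cell cycle genes and 12.99% for AP-1 factor genes. The share of 11.3% holds for 10000 bp and is not the match for these values. Of all untreated loci 10 to 50 kb from a TSS, 18.8% closed. With lists of equal length the share of cell cycle genes was 13.6%, and that of all loci at any distance 18.98%. Kept promoters of ERK targets had a median shift of 19.6 points, with 13 of 27 rising and none falling, and those of cell cycle genes 19.7 points, with 15 of 31 rising and none falling, beside 32.6% and 4.44% over all kept promoters. The promoter of Mki67, a proliferation marker, scored 7.08 untreated and 11.0 with TSA. At Atf3, a stress-induced AP-1 partner, 3 of 4 kept loci rose, and the median shift over the 4 was 31.3 points. The promoters of MYC targets had a median shift of 11.4 points, the same as over all promoters to this precision. Housekeeping genes had a median promoter shift of 18.9 points.

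Markers of other lineages gave counts that depended on the window. Neural markers had 10 of 40 loci closed (25.0%) and 2 of 32 opened (6.25%), with 3 closed loci at Pax6, a regulator of eye and brain development. Endothelial markers had 5 of 22 closed (22.7%) and 1 of 18 opened (5.56%). Muscle markers had 5 of 30 closed and 3 of 28 opened. For epithelial genes these counts were 6 of 42 and 4 of 40. Blood cell markers were balanced, with 3 of 26 loci closed and 3 of 26 opened. Within 50000 bp the closed and opened shares were 20.2% and 8.22% for neural, 11.8% and 22.1% for endothelial and 16% and 18.4% for muscle markers, and 8.28% and 13.8% for epithelial genes, so that only neural markers kept the same order among these. For all loci 10 to 50 kb from a TSS, these shares were 18.8% and 21.7%. The matching share of all coding genes within 50000 bp is not given here. With lists of equal length, 36.7% of muscle loci and 23.1% of blood loci closed, against 18.98% of all loci at any distance. No difference between closed and opened shares was tested. Neuronal genes repressed by REST had 8 of 46 closed (17.4%) and 4 of 42 opened (9.52%). Pluripotency genes had 5 of 33 closed (15.2%) and 8 of 36 opened (22.2%), of which 4 were at Lin28a. Hox genes, which set position along the body axis, had 16 of 79 closed (20.3%) and 11 of 74 opened (14.9%). Germline genes had few loci, with 0 of 9 closed, which allows a share of up to 33.6% by the exact interval, and 2 of 11 opened. Over the 25 lists, within 10000 bp, the share closed was above that of all coding genes (11.3%) in 15. The share opened was above that of all coding genes (13.0%) in 10.

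Motifs were counted in the central 200 bp of each locus on both strands, and shares in kept loci were weighted to the GC content of the changed loci. AP-1 (TGACTCA) was matched in 23.7% of all loci. It was found in 22.6% of closed loci, against 37.3% of kept loci (ratio 0.61, 0.58 to 0.63), and in 24.4% of opened loci, against 41.1% (0.59, 0.58 to 0.61). Kept loci with AP-1 were strong. With no weighting the ratios were 0.72 in closed and 0.78 in opened loci. Weighted to the same score rank in place of GC they were 0.84 and 0.95. ETS motifs (CCGGAAG), which are common in promoters and were matched in 2.17% of all loci, had ratios of 0.44 in closed and 0.49 in opened loci. SP motifs (GGGCGGG), matched in 6.204% of all loci, had ratios of 0.67 and 0.57.

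**Figure D4:**
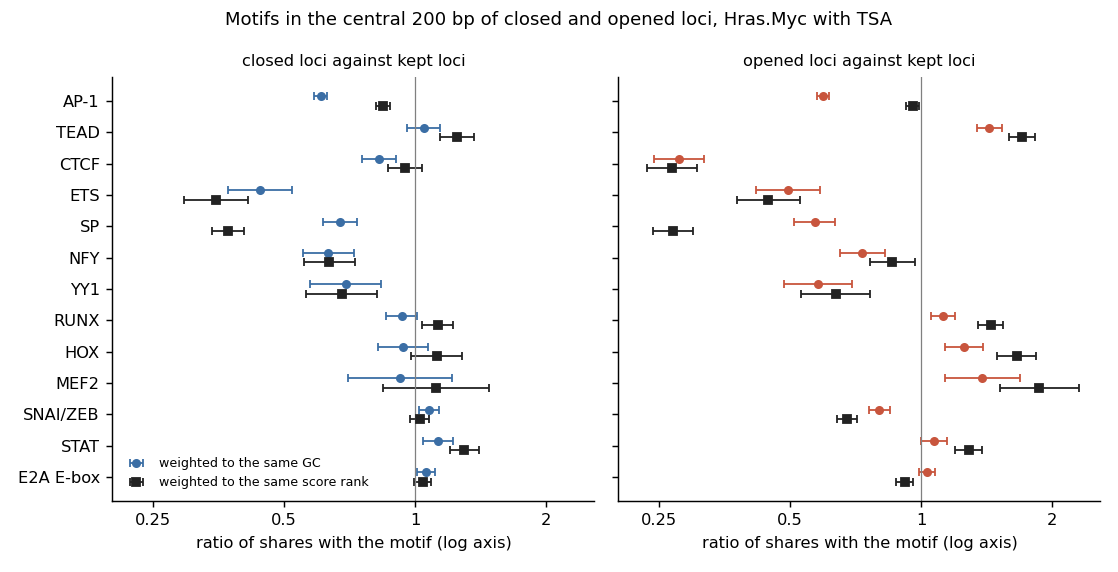
Ratio of the share of closed (left) or opened (right) loci with a motif to the share of kept loci, on a log axis. Circles are weighted to the same GC content and squares to the same score rank in place of GC, with approximate 95% intervals for counting error. With GC weighting CTCF lies at 0.28 in opened loci and TEAD at 1.43.

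CTCF, the insulator protein that anchors chromatin loops, gave the most uneven pattern. Its motif was matched in 2.74% of all loci. It was found in 4.80% of closed loci but in 1.63% of opened loci, against 5.88% of kept loci weighted to the opened ones (ratio 0.28, 0.24 to 0.32). Weighting by score rank in place of GC gave 0.27, and neither weighting gave 0.32. Removing the weakest 25% of each list gave 0.49. In closed loci the ratio was 0.82 (0.75 to 0.90), and it turned to 1.16 with the weakest 25% removed. Kept distal loci with the CTCF motif had a median rank shift of -4.80 points (-5.98 to -3.78), and 27.0% of them fell by 20 points or more, against 17.1% of those with AP-1 and 19.9% of those with neither. TEAD factors are the partners of YAP in the Hippo pathway. Their motif (ACATTCC), matched in 7.32% of all loci, was found in 7.66% of opened loci against 5.35% of kept loci (ratio 1.43, 1.34 to 1.53), and in 5.22% of closed loci against 4.99% (1.04, 0.96 to 1.14). Weighted to the same score rank in place of GC, the ratios were 1.704 in opened and 1.25 in closed loci (1.14 to 1.36). With neither weighting they were 1.76 and 1.196. With GC weighting, MEF2 motifs had ratios of 1.38 in opened and 0.92 in closed loci, and HOX motifs (TTTATGG) 1.25 and 0.94. The SNAI and ZEB motif (CAGGTG) had a ratio of 0.80 in opened loci and 1.07 in closed loci. Weighted by score rank in place of GC, the opened and closed ratios were 1.87 and 1.11 for MEF2 and 1.66 and 1.12 for HOX. For the SNAI and ZEB motif they were 0.67 and 1.02 (closed, 0.97 to 1.08). A match is a description of the sequence and not evidence of binding.

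Among kept promoters, those that rose held YY1 motifs (AAGATGGC) in 4.18% of loci against 2.83% of promoters that changed by less than 20 points (ratio 1.48, 1.23 to 1.79). The MYC E-box (CACGTG) was found in 8.09% against 6.41% (1.26, 1.11 to 1.44). OCT motifs (ATGCAAAT) were rare, at 1.19% against 0.68% (1.75, 1.202 to 2.54). These are 3 of the 32 motifs compared, and the intervals were not adjusted for that number.

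Most of the changed loci were open elsewhere in the series. Of the closed loci, 75.7% were open in Hras.E1A, 72.5% in Hras.E1A+TSA and 66.1% in Hdac7SA.Mef2d, a line made with an export-deficient form of Hdac7 and with Mef2d. Of the opened loci, 42.1%, 42.6% and 64.9% were open in these lists, so that opened loci were matched most often in Hdac7SA.Mef2d, the longest list. Kept loci were open in 92.5%, 93.6% and 82.0%. A peak in no other list was found for 1778 opened loci (12.4%) and 704 closed loci (6.38%). With PD in Hras.Myc, which shares the untreated list, 40.6% of the loci closed by TSA and 20.1% of those opened by TSA were open.

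To see how far the response was shared between lines, loci were compared with TSA in Hras.E1A, which has its own untreated list. Among 60269 loci open in both untreated lines, 8355 closed in Hras.Myc and 3661 in Hras.E1A, and 1580 closed in both. These were 18.9% of the loci closed in Hras.Myc (18.1 to 19.8) and 43.2% of those closed in Hras.E1A, and Hras.E1A closed 4.01% of the loci that Hras.Myc did not close. Among 60507 loci open in neither untreated line, 2023 opened in both, which were 24.4% of 8292 in Hras.Myc and 27.6% of 7334 in Hras.E1A. Of the loci that Hras.Myc did not open, Hras.E1A opened 10.2%. These shares were not matched for peak strength. In Hras.Myc 32.6% of loci at ranks 0 to 10 closed, against 3.21% at ranks 90 to 100. The lists are also not independent, since weak peaks were recovered with the help of other samples. How much of the overlap goes with weak peaks was not tested. Opposite changes were also present. Of all 11042 loci closed in Hras.Myc, 1231 opened in Hras.E1A, and of all 14325 opened in Hras.Myc, 1960 closed in Hras.E1A. Such changes are possible only at loci open in 1 of the untreated lists and not the other, which lie outside the sets above. Their share of those loci was not computed, so these counts cannot be set against the shared changes. Promoters contributed 122 of the loci closed in both lines and 136 of those opened in both.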

How the data were processed

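ATAC-seq libraries were aligned to mm10 and peaks were called by the authors. The submitters' processing notes name Bowtie2 2.4.5 and MACS2 2.2.7.1. Weak peaks were then recovered with the help of peaks of other samples, so lists are not independent. The deposited lists hold 1 set of 400 bp peaks for each group with a score given by the authors, of unstated scale and a lowest value just over 1.2. The depth of the libraries is unknown.

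Peaks of the 7 lists were merged where they overlapped by 1 bp or more. TSSs came from the coding genes of GENCODE M21 basic (GRCm38). The score was used as a percentile rank within a list. Shares have exact binomial (Clopper-Pearson) 95% intervals, medians order-statistic intervals, and ratios approximate intervals, for counting error only. With 1 list for each group no p-value was computed. Genes were named by net loci within 10000 bp (10 in each direction, predicted genes left out), median shift over 4 or more kept loci (5 in each direction), promoter scores (5 in each direction), up to 4 members of each of 25 lists with most changed loci, and genes of the study. A few list members and the marker genes were described for their role. A gene and a locus picked by these rules are not reported here. The members, lists, motifs and rules were chosen with earlier results of these data known. Steps were tested on simulated data and run in Python 3.11.15, with pandas 2.3.3 and scipy 1.17.1.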

Additional observations from a re-analysis of the deposited data

Results flagged for a closer look

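The lines differed in the balance of loci with TSA. In Hras.Myc the number of opened loci exceeded that of closed loci by 3283, while in Hras.E1A the difference was -1485. These values equal the difference in the number of loci between the lists, whose depth is unknown. With lists of equal length Hras.Myc had 12752 closed and 12907 opened loci. The difference was not tested, since each line had 1 list with and 1 without TSA.

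Of 32 motifs, 5 were more frequent in opened than in closed loci in Hras.Myc and less frequent in Hras.E1A, with counting intervals that leave out 1 in both lines. The ratio of the share in opened loci to that in closed loci was 1.47 in Hras.Myc and 0.62 in Hras.E1A for TEAD, 1.34 and 0.80 for RUNX (TGTGGTT), and 1.54 and 0.85 for HOX. For FOX (TGTTTAC) it was 1.33 and 0.75, and for C/EBP (TTGCNNAA) it was 1.24 and 0.91. For TEAD the shares behind these ratios were 7.66% and 5.22% in Hras.Myc, and 5.63% and 9.04% in Hras.E1A. Without promoter loci the TEAD ratios were 1.45 and 0.63, and with the weakest 25% of each list removed 1.204 and 0.57. The difference between the lines was not tested over samples.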

How the results depend on the processing

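No paired analysis was possible because each group has 1 peak list and TSA has 1 library, and for the same reason leaving out a replicate was not run. Of the comparisons of a main result with an alternative, 51 stayed within its interval (for counts of loci, within 1.5 times), 40 moved and 1 changed direction. Those that stayed include 2 settings that gave the same or nearly the same values. These were a cover of 50% of the locus and a catalogue of only the 2 Hras.Myc lists, and they say little on stability. With the weakest 25% of each list removed, closed and opened shares were 21.7% and 25.1%, distal to promoter ratios 3.17 and 2.43, kept promoter and distal shifts 17.2 and -0.74 points, and overlaps with Hras.E1A+TSA 22.8% of closed and 23.2% of opened loci. The CTCF ratio in closed loci was then 1.16, and so above 1, and that in opened loci 0.49, with AP-1 at 0.68 and TEAD at 1.23 in opened loci. With lists of equal length the shares were 18.98% and 19.2%, the ratios 2.22 and 6.25, the shifts 10.6 and -1.34, and the overlaps 25.5% and 17.8%. A promoter window of 2500 bp gave ratios of 2.29 and 3.10 and a distal shift of -0.46. Ranks among kept loci gave shifts of 9.96 and -1.66. Requiring no peak within 500 bp in the other list gave shares of 16.004% and 19.998%. In the central 100 bp the AP-1 ratios were 0.54 in closed and 0.54 in opened loci, and CTCF 0.24 in opened loci. Without GC weighting AP-1 was at 0.72 and 0.78, TEAD at 1.196 and 1.76, and CTCF at 0.93 in closed loci. Weighting to the same score ranks was added after the data were seen, and for motifs it replaced the weighting by GC. It put AP-1 at 0.84 and 0.95, TEAD at 1.25 and 1.704, and CTCF at 0.95 in closed loci. The opened ratio of distal to promoter loci was 3.39 with it. The causes were not tested. For gene lists and net counts at named genes, 184 comparisons stayed within the interval or, for net counts, within 1.5 times, and 26 moved. Read depth is unknown, and 1 TSA library leaves the spread between cultures unmeasured.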
